A study of Mus musculus with 4 samples.

Results

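The genes described here are 10 that publications report as direct targets of the microRNA miR-142: Adcy9, Cfl2, Twf1, Wasl, Rac1, Rock2, Cdkn1b, Gab1, Arhgap35 and Tgfbr1. They were taken from those publications, with earlier results of these data known. Of the 10, 9 had a probe set assigned to that gene alone, among 19938 such genes on the array. Rock2 was not analysed here. Each gene was read from 1 probe set, the one with the highest mean over the 4 arrays where there were several.

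Expression was measured in CD4+ CD8- thymocytes of 8-week-old C57BL/6n mice, sorted from a pool of thymi per genotype. By the labels, the WT (miR-142+/+) pool held 5 mice, 3 female and 2 male, and the miR-142-/- pool held 4 mice, 1 female and 3 male. The sex-linked transcripts given below do not match these sexes. Each pool gave a CD69+ Qa2- population, the less mature CD4 single-positive cells, and a CD69- Qa2+ population, the more mature cells close to leaving the thymus. There was 1 array for each of the 4 groups. No genotype comparison therefore has a replicate check or a p-value, and both populations of a genotype came from the same mice. The labels do not say how the Mir142 gene was inactivated or in which cells.

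MicroRNAs are short RNAs that guide Argonaute proteins to messenger RNAs, mostly by pairing of the seed near their 5′ end with sites in the 3′ untranslated region. Paired messengers are translated less and often decay faster, so loss of a microRNA can raise the level of its targets. miR-142 is abundant in blood cells, and several of its reported targets act on the actin cytoskeleton. An array reads messenger level only, so any effect on translation alone is not seen.

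The sequences of the microRNA are shown because its seeds guide pairing with targets. They are from RefSeq (GRCm38.p6), where the Mir142 hairpin lies at chr11:87756864-87756927 on the plus strand, and capitals mark the mature arms in the hairpin and the seed (bases 2 to 8) in each mature form.
Mir142 hairpin: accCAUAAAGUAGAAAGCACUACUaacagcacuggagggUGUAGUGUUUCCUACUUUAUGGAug
mmu-miR-142a-5p: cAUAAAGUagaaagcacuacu
mmu-miR-142a-3p: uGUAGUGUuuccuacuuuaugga
The DNA letters complementary to these seeds are ACTTTAT for the 5p arm and ACACTAC for the 3p arm. No other mature microRNA among the 1738 in that table had either seed, so by seed each arm stands alone. On the minus strand, at chr11:87756841-87756955, the Mir142b hairpin overlaps Mir142, and its mature form has a different seed. Whether the miR-142-/- cells also lack miR-142b is not given in the labels. The positions of seed matches in the 10 genes were not analysed here.

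As a check of the labels, the log2 signal of Mir142 was 10.11 in WT Qa2- cells against 5.29 without miR-142, and 9.41 in WT Qa2+ cells against 4.88. Only the values without miR-142 lay below the background threshold of 5.87, set so that 95% of the odorant and pheromone receptor genes, not expected in thymocytes, fall under it. Array medians lay between 6.61 and 6.74, and correlations between arrays over all probe sets between 0.982 and 0.991. Cd4 and Cd3e, defining markers of the sorted cells, lay between 12.36 and 12.92 on all arrays. Of the 10 measured markers of CD4 single-positive cells, 5 were lower in miR-142-/- than in WT Qa2- cells and 7 in Qa2+ cells. Their median log2 differences were 0.00 and -0.03. By mean size, the largest differences in that list were those of S1pr1, at -1.70 and -0.46, and Klf2, at -0.48 and -0.87. Of the CD8 genes, which the sort selects against, Cd8a read 7.25 to 7.53, and Cd8b1 read 8.75 to 9.98 and was 1.66-fold and 2.34-fold lower in miR-142-/- Qa2- and Qa2+ cells. Rag1, Dntt and Arpp21, markers of earlier stages, read higher in Qa2+ than Qa2- cells of both genotypes, although Qa2+ marks the more mature population. WT signal rose from 5.92 to 8.63 for Rag1, 7.47 to 8.46 for Dntt and 6.47 to 8.26 for Arpp21. Their genotype differences (Qa2-, then Qa2+) were 0.20 and -0.61, 0.47 and 1.08, and 1.48 and 0.48. Among the 7 CD8 and earlier-stage genes above background, the WT arrays had 2 lower in Qa2+ cells and the miR-142-/- arrays 3. Of 5 measured B cell markers 4 had means below background and Cd79b, at 6.88 to 7.70, differed by -0.48 and -0.45. Of 8 myeloid markers 5 had means below background, while Cd68, Lyz2 and Itgam lay above it. Their differences were -0.63, -0.81 and -0.33 in the Qa2+ population but -0.11, 0.11 and -0.15 in the Qa2- population.

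Other transcripts differed between the genotypes alongside the targets. Xist was at 12.14 or more on the WT arrays and at 5.06 or less on the others, and the genes Uty, Kdm5d and Eif2s3y of the Y chromosome read at most 5.09 in WT and at least 9.72 in miR-142-/-, although the labels give both sexes in each pool. By these genes the WT arrays read as female and the miR-142-/- arrays as male. Sex and genotype therefore cannot be told apart in the genotype comparisons. All 9 measured proliferation markers lay 1.5-fold or more below WT in both populations, against 2.76% of all genes above background. Their mean level was 9.05 and 9.70 in WT against 7.07 and 7.35 in miR-142-/-. Of 10 markers of regulatory and innate-like T cells, 8 lay 1.5-fold or more below WT in the Qa2- population and 6 in the Qa2+ population, against 3.74% and 4.88% of all genes. Their mean level was 9.18 and 8.89 in WT against 7.49 and 7.91 in miR-142-/-. Il2ra (0.33 and 0.26) and Ikzf2 (0.08 and -0.06) in that list did not fall in this way. The part of any of these, or of the CD4, CD8, earlier-stage, B cell and myeloid markers, in the differences of the targets was not tested. In such sorted populations a change in the mix of cells and a change in messenger per cell cannot be told apart.

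Of the 9 genes measured, 8 had a mean above background. In the miR-142-/- cells 7 of the 8 were higher than in WT in both populations, against 35.3% of the 12591 genes above background, and Tgfbr1 was lower in both, against 35.4%. The differences were small. At 1.5-fold or more, 2 of 8 were higher in Qa2- cells (Adcy9 and Arhgap35), against 3.11% of all genes, and 2 of 8 in Qa2+ cells (Cfl2 and Arhgap35), against 4.56%. None of the 8 was 1.5-fold lower in either population, where 3.74% and 4.88% of all genes were, or in both, where 2.76% were. Arhgap35 was the 1 target 1.5-fold higher in both, where 2.14% of all genes were. At a lower threshold of log2 0.32, 6 of 8 were higher in the Qa2- population, against 8.95% of all genes, and 1, Tgfbr1, was lower, against 10.3%. In the Qa2+ population 5 were higher, against 13.0%, and 0 were lower, against 13.1%, and 4 (Adcy9, Cfl2, Twf1 and Arhgap35) were higher in both, against 5.85%. No target reached 2-fold, where 1.04% and 1.43% of all genes were higher. The median log2 difference of the 8 was 0.42 for Qa2- and 0.35 for Qa2+ cells, and that of all genes was 0.00 for each.

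**Figure D1:**
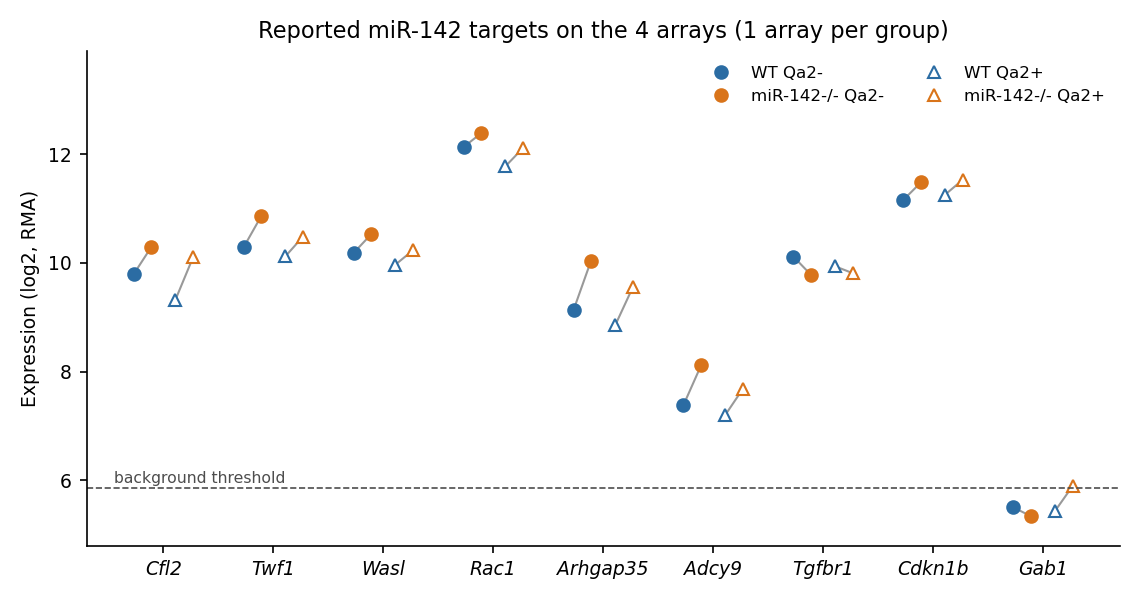
Expression (log2, RMA) of the 9 measured targets on each of the 4 arrays, with WT in blue and miR-142-/- in orange, Qa2- cells as filled circles and Qa2+ cells as open triangles; grey lines join the genotypes within a population. The miR-142-/- point lies above the WT point in both populations for 7 genes and below it for Tgfbr1, while Gab1 lies below the dashed background threshold of 5.87 on 3 arrays and just above it, at 5.90, on the fourth.

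Among the targets that act on actin filaments, Cfl2 encodes cofilin 2, a protein that severs and disassembles filaments and is best known from muscle. It read 9.79 in WT and 10.29 in miR-142-/- Qa2- cells, and 9.32 in WT and 10.10 in miR-142-/- Qa2+ cells. Both miR-142-/- arrays were above both WT arrays. The log2 differences were 0.50 and 0.78, and 4.32% of all genes had a difference as high or higher in Qa2- and 2.58% in Qa2+ cells.

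Twf1 encodes twinfilin, which binds actin monomers and filament ends. It read 10.29 and 10.86 in WT and miR-142-/- Qa2- cells and 10.12 and 10.48 in WT and miR-142-/- Qa2+ cells, again without overlap between the genotypes. The differences of 0.57 and 0.36 were matched or exceeded by 3.25% and 10.8% of all genes, so Twf1 lay just short of 1.5-fold in Qa2- cells. A second Twf1 probe set, at a lower signal of 8.91 to 9.52, gave 0.62 and 0.27, the first of which exceeds 1.5-fold.

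Wasl encodes N-WASP, the widely expressed activator of the Arp2/3 complex that starts branched actin networks. It read 10.18 and 10.53 in WT and miR-142-/- Qa2- cells and 9.97 and 10.23 in WT and miR-142-/- Qa2+ cells. The genotypes did not overlap, although the miR-142-/- Qa2+ value was only slightly above the WT Qa2- value. The differences were 0.34 and 0.27, as high or higher in 8.09% and 16.7% of all genes.

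Rac1 encodes a small GTPase that drives membrane ruffling and acts upstream of Arp2/3. It read 12.13 and 12.38 in WT and miR-142-/- Qa2- cells and 11.77 and 12.11 in WT and miR-142-/- Qa2+ cells. Here the genotypes overlapped across populations, since the WT Qa2- value lay above the miR-142-/- Qa2+ value. Within populations the differences were 0.25 and 0.34, which 12.8% and 12.1% of all genes reached or passed.

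Arhgap35 encodes a GTPase-activating protein, which switches off small GTPases that organise actin. It read 9.13 and 10.04 in WT and miR-142-/- Qa2- cells and 8.86 and 9.55 in WT and miR-142-/- Qa2+ cells. Both miR-142-/- values were clear of both WT values, and by the mean of the 2 populations Arhgap35 had the largest difference among the 8. It was 1.88-fold higher in Qa2- and 1.62-fold higher in Qa2+ cells, and 1.33% and 3.22% of all genes had a difference as high or higher.

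Adcy9, an adenylyl cyclase that makes the second messenger cyclic AMP, had the lowest signal of the 8, with 7.39 and 8.11 in WT and miR-142-/- Qa2- cells and 7.20 and 7.68 in WT and miR-142-/- Qa2+ cells. The genotypes did not overlap. It was 1.66-fold higher in Qa2- and 1.39-fold higher in Qa2+ cells, and 2.06% and 6.77% of all genes were as high or higher.

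Cdkn1b encodes p27, an inhibitor of cyclin-dependent kinases that holds cells in G1. It read 11.16 and 11.48 in WT and miR-142-/- Qa2- cells and 11.26 and 11.53 in WT and miR-142-/- Qa2+ cells, without overlap. The differences of 0.32 and 0.27 were reached by 8.94% and 16.1% of all genes. The second Cdkn1b probe set, at 8.46 to 9.46, gave 0.36 in Qa2- but 0.92 in Qa2+ cells, so the size of the Qa2+ difference depends on the probe set, and averaging both gave 0.60.

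Tgfbr1 encodes the type I receptor of TGF-beta, the kinase that phosphorylates Smad2 and Smad3. It was the single target above background that read lower without miR-142, with 10.11 in WT and 9.78 in miR-142-/- Qa2- cells and 9.94 and 9.81 in Qa2+ cells. Both miR-142-/- values lay below both WT values. The differences were -0.34 and -0.13, and 9.53% and 31.0% of all genes were as low or lower, so the Qa2+ value lies well inside the distribution.

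Gab1, a docking adaptor below receptor kinases, read 5.50 and 5.34 in WT and miR-142-/- Qa2- cells and 5.44 and 5.90 in WT and miR-142-/- Qa2+ cells. It exceeded the background threshold on 1 array, and its levels are therefore given without a fold.

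Across all 4 arrays, 6 of the 8 genes had both miR-142-/- values above both WT values, against 20.9% of all genes. The exceptions were Rac1, whose genotypes overlapped, and Tgfbr1. For scale, receptor genes had genotype differences with a standard deviation of 0.15 (Qa2-) and 0.18 (Qa2+). That is scatter at low signal on these arrays and not the spread between mice. The 95th percentile of all genes was 0.46 in Qa2- cells, which Cfl2, Twf1, Arhgap35 and Adcy9 passed, and 0.56 in Qa2+ cells, which Cfl2 and Arhgap35 passed.

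**Figure D2:**
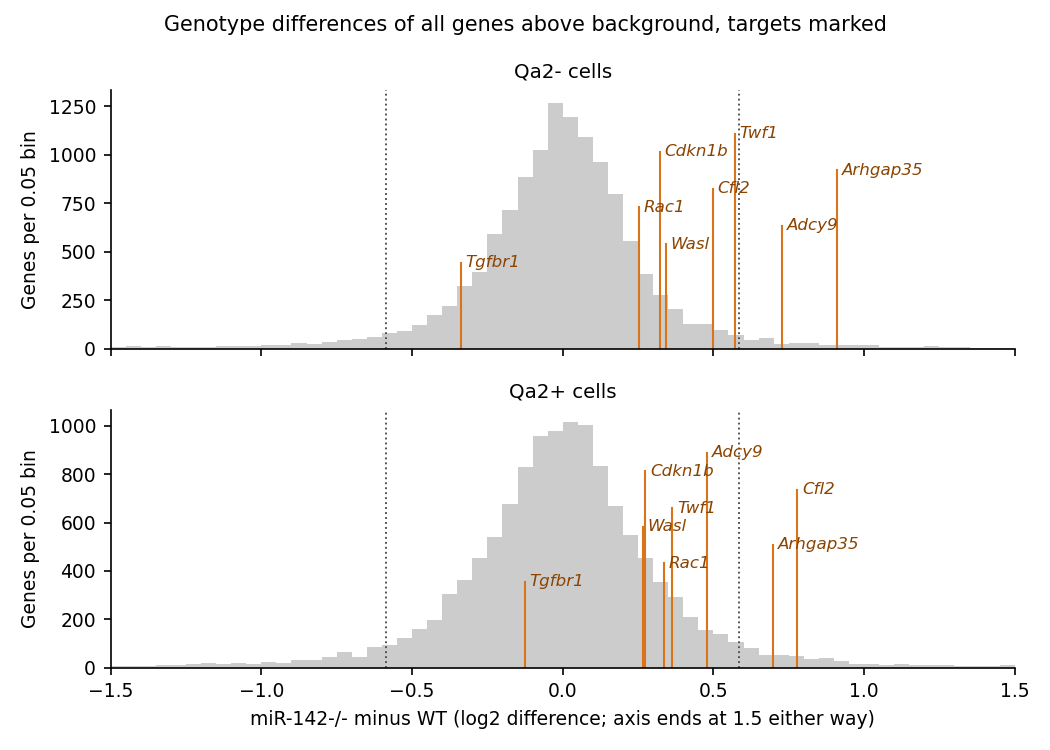
Distribution of the genotype difference (miR-142-/- minus WT, log2) over the 12591 genes above background, in bins of 0.05, for Qa2- and Qa2+ cells; orange lines mark the 8 targets, their heights carry no value, dotted lines mark 1.5-fold, and the few genes beyond the axis are not drawn. Except for Tgfbr1, the targets lie on the right flank in both panels, with Adcy9 and Arhgap35 past 1.5-fold in Qa2- cells and Cfl2 and Arhgap35 in Qa2+ cells.

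How far the genotype difference depended on the stage can be read from the change between populations. The Qa2+ difference minus the Qa2- difference was -0.25 for Adcy9, -0.21 for both Twf1 and Arhgap35, 0.28 for Cfl2 and 0.21 for Tgfbr1. It lay between -0.08 and 0.08 for Wasl, Rac1 and Cdkn1b, though for Cdkn1b it was 0.26 with both probe sets averaged. These differences of differences have no test.

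Each target except Cdkn1b, whose listed relative was not analysed here, was set beside 1 relative from its own gene family, chosen with earlier results of these data known. The differences are compared, not the levels, which come from different probes. Of the 7 pairs with both genes above background, the target had the higher difference in 6 in Qa2- cells and in 7 in Qa2+ cells, the Tgfbr1 pair in Qa2+ cells by 0.004. The relatives had a median difference of -0.16 in Qa2- and -0.27 in Qa2+ cells, and 6 of the 7 were below 0 in each population. The relative in the Tgfbr pair, Tgfbr2, is itself a reported miR-142 target. The Tgfbr pair was also the only pair whose target did not have the higher difference in Qa2- cells. The 6 of 6 in each population without it therefore follows from leaving it out. The remaining relatives had medians of -0.17 and -0.32.

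In the actin group, Cfl1, the non-muscle cofilin, differed by -0.13 and -0.27 in Qa2- and Qa2+ cells, where Cfl2 differed by 0.50 and 0.78. Twf2 differed by -0.22 and -0.45, on the other side of 0 from Twf1. Was, which encodes the blood cell form of the Arp2/3 activator, differed by -0.43 and -0.60, the latter 1.52-fold lower, while Wasl was higher. Rac2, the Rac GTPase restricted to blood cells, differed by -0.11 and -0.37, where Rac1 differed by 0.25 and 0.34. In all 4 pairs as chosen, the reported target and its relative lay on opposite sides of 0 in both populations. Other relatives could have been paired, and they read differently. Dstn of the cofilin family differed by 1.58 and 1.89, on the same side as Cfl2, and Rac3 by 0.30 and -0.07.

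Outside that group, Adcy7, another adenylyl cyclase, differed by -0.26 and -0.20. The pairing with Adcy9 is 1 of several possible, since the adenylyl cyclases Adcy6 (0.15 and 0.19) and Adcy4 (0.02 and 0.18) read higher and Adcy3 (-0.28 and -0.45) lower. Arhgap5, a related GTPase-activating protein gene, differed by 0.16 and 0.61 and was the only relative of the 7 above 0 in either population. It was 1.52-fold higher in Qa2+ cells, beside 1.62-fold for Arhgap35. Tgfbr2, the type II TGF-beta receptor, differed by -0.16 and -0.13, close to Tgfbr1 in Qa2+ cells. Gab3 differed by -0.04 and -0.19 and its relative Gab2 by 0.19 and 0.29, and Rock1, the relative of Rock2, by -0.02 and 0.20.

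**Figure D3:**
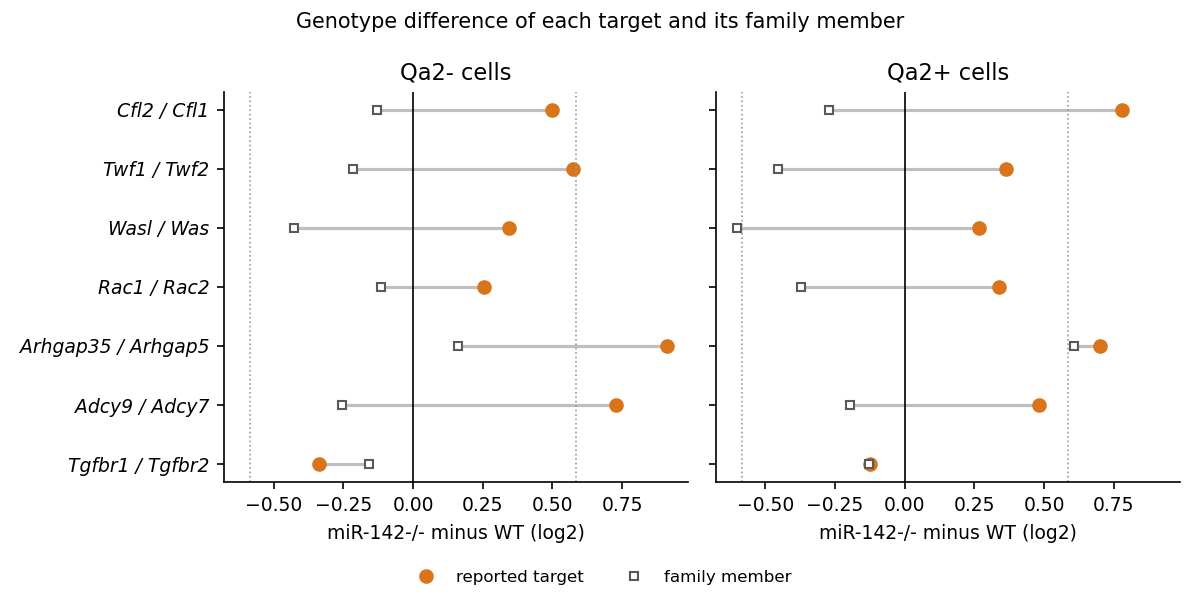
Genotype difference (miR-142-/- minus WT, log2; 1 array per group) of 7 reported targets (filled orange circles) and the relative from the same gene family (open grey squares) in Qa2- and Qa2+ cells; grey lines join a pair and dotted lines mark 1.5-fold. The Cfl, Twf, Was, Rac and Adcy pairs straddle 0 in both panels, the Arhgap pair lies above 0 and the Tgfbr pair below it.

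The wider pathways of the targets did not share one direction. Their counts are to be read against the shares of all genes given above, 3.11% higher and 3.74% lower at 1.5-fold in the Qa2- population and 4.56% and 4.88% in the Qa2+ population. Of 42 genes that regulate actin, 38 were measured above background, with medians of -0.06 in Qa2- and -0.13 in Qa2+ cells. Past 1.5-fold, 1 was up and 0 down in the Qa2- population, and 2 were up and 2 down in the Qa2+ population. Dstn, which encodes destrin, the third actin-severing protein of the cofilin family, was the 1 gene past 1.5-fold in both populations. It read 7.84 and 9.43 in WT and miR-142-/- Qa2- cells and 7.40 and 9.29 in WT and miR-142-/- Qa2+ cells, which is 3.00-fold and 3.70-fold higher. No target among the 8 differed by as much.

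Of 25 genes of cyclic AMP signalling, 19 were above background, with medians of 0.03 and 0.15. In each population 1 was at least 1.5-fold higher and 1 lower. Prkar2a, a regulatory subunit of protein kinase A, differed by -1.20 and -1.14. Its miR-142-/- value was at the background threshold in Qa2- cells (5.88) and below it in Qa2+ cells (5.69), so the size of both differences is uncertain. Pde3b, a phosphodiesterase that breaks down cyclic AMP and is itself a reported miR-142 target, differed by 0.45 and 0.59.

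Of 18 genes of TGF-beta and BMP signalling, 17 were above background, with medians of 0.05 and 0.08. In each population 2 were at least 1.5-fold higher and 0 lower. Bmpr2, the type II receptor of bone morphogenetic proteins, was past 1.5-fold in both, with 8.99 and 10.49 in WT and miR-142-/- Qa2- cells and 9.18 and 10.57 in WT and miR-142-/- Qa2+ cells. That is 2.83-fold and 2.63-fold higher, while Tgfbr1 of the same receptor superfamily was lower.

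Of 17 cyclin-dependent kinase inhibitors and G1 regulators, 16 were measured, all above background, with medians of -0.18 and -0.09. None was 1.5-fold higher, and 3 in Qa2- and 6 in Qa2+ cells were 1.5-fold lower. Those lower in both were Cdkn2c, the kinase inhibitor p18, at -1.46 and -1.98, and the cyclin E genes Ccne1 at -1.35 and -1.02 and Ccne2 at -1.36 and -2.06. The miR-142-/- Qa2+ value of Ccne2, 5.59, was below background, so the size of its difference there is uncertain. Cdkn1b read slightly higher where these 3 genes read lower, beside the proliferation markers given above.

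Of 12 partners of Gab adaptors, 11 were above background, with medians of 0.18 and 0.08. In each population 1 was 1.5-fold higher and 0 lower. Pik3r1, the regulatory subunit of phosphoinositide 3-kinase, differed by 0.69 and 0.37, and the adaptor Crk by 0.34 and 0.62.

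A further 24 genes that publications report as miR-142 targets were listed, of which 21 were above background. Their medians were 0.14 in Qa2- and 0.21 in Qa2+ cells, between those of all genes and of the 8. Of the 21, 10 were above 0 in both populations and 5 below 0 in both, where 35.3% and 35.4% of all genes were. At 1.5-fold, 1 was higher and 2 lower in Qa2- cells and 2 higher and 3 lower in Qa2+ cells. Bod1, needed for chromosome attachment to the spindle, was 1.69-fold and 1.79-fold higher. The cell cycle repressors E2f7 and E2f8 were lower, by -0.92 and -0.99 for E2f7 and by -1.58 and -2.35 for E2f8.

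**Figure D4:**
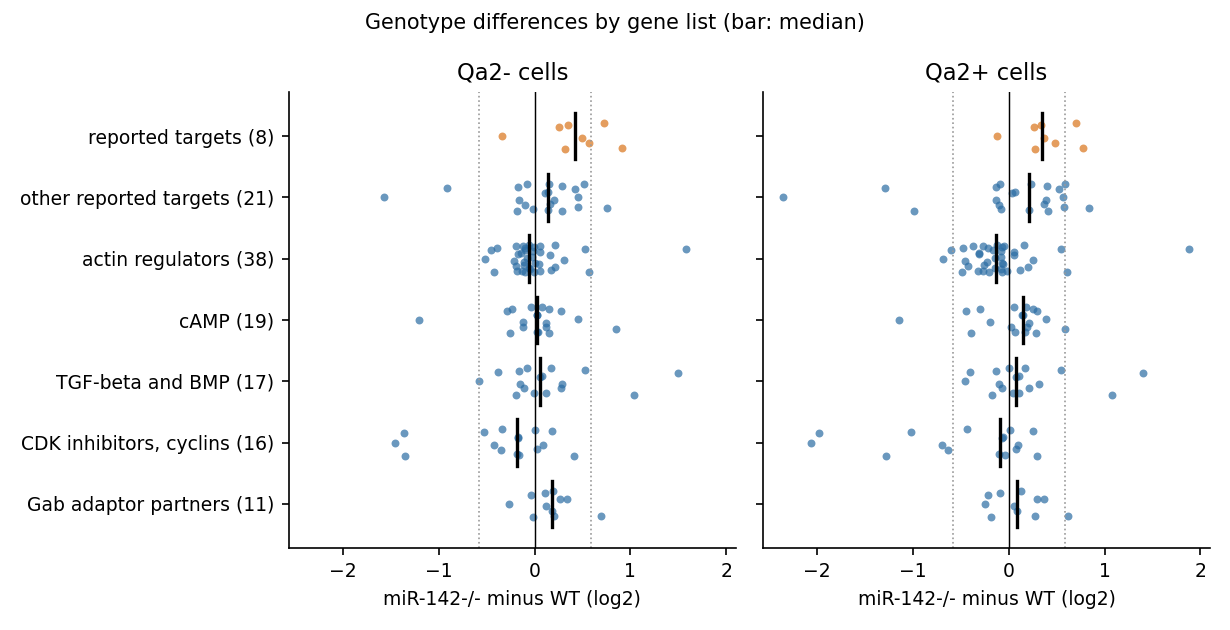
Genotype difference (miR-142-/- minus WT, log2; 1 array per group) of each gene above background in the 8 reported targets (orange) and in 6 related lists (blue), with the number of genes in brackets, in Qa2- and Qa2+ cells; black bars are medians, dotted lines mark 1.5-fold, and the vertical scatter within a list carries no value. The median of the 8 targets is 0.42 and 0.35, and those of the related lists lie between -0.18 and 0.21.

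Between the stages, Qa2+ values were below Qa2- values in both genotypes for 6 of the 8 genes, against 46.3% of all genes, whose own median stage difference was -0.06 in WT and -0.06 in miR-142-/-. Averaged over the genotypes with limma, with the pool as a block, 0 of the 8 were lower and 0 higher in Qa2+ cells at a Benjamini-Hochberg adjusted p under 0.05, against 8.35% and 4.77% of all genes. At an unadjusted p under 0.05, 6 of the 8 passed in the same fit, all lower in Qa2+ cells, against 3732 of the 12591 genes in either direction. That count of targets was 2 after centring the arrays, against 3555 genes, 3 after quantile normalization, against 3536 genes, and 0 without the block. The balance of calls over all genes depends on scaling, with 600 higher and 1051 lower as deposited and 1076 higher and 721 lower after centring the arrays, while 0 of the 8 targets passed in either. In limma without the block no gene passed, and 1544 had an unadjusted p under 0.05.

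Arhgap35 had the largest averaged stage difference of the 8, at -0.38 ± 0.11 (limma log2 difference ± SE, 2 pairs of sorted populations, adjusted p = 0.051). Cfl2 differed by -0.33 ± 0.11 (limma, adjusted p = 0.089) and Rac1 by -0.31 ± 0.10 (limma, adjusted p = 0.077). Cdkn1b differed by 0.07 ± 0.10 (limma, adjusted p = 0.66) and Tgfbr1 by -0.07 ± 0.11 (limma, adjusted p = 0.68). The other three, Adcy9, Twf1 and Wasl, lay between -0.31 and -0.25. The pairs are pools. With 1 residual and 6.94 prior degrees of freedom, each SE and p-value rests mostly on a variance pooled over all genes. They do not measure the spread between mice.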

How the data were processed

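Per the submitters' processing notes, RMA and Partek were used, and their versions are not given in the sources used here. The deposited values are log2 expression per probe set. RMA subtracts background, equalises array distributions and summarises probes, which compresses differences at low signal and removes a change common to the whole array. Of 35557 probe sets, 21789 had 1 listed gene, 1621 several and 12147 none, and 21698 matched a gene record of GRCm38.p6 by Entrez ID, which gave 19938 genes. Genes with a mean over the 4 arrays above log2 5.87 (12591) counted as above background. For 1 sample, miR-142-/- Qa2-, the description field says Qa2+ instead, and its title and sorting entry were followed.

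Genotype differences are miR-142-/- minus WT. Stage differences were fitted with limma 3.58.1 in R 4.3.3 on all genes above background, with Benjamini-Hochberg adjustment (two-sided), 1 residual and 6.94 prior degrees of freedom, and the fit was tested on simulated data. The targets and gene lists were chosen with earlier results of these data known. Named genes are all targets and their relatives, and of each other list those past 1.5-fold one way in each population, or else the 2 with the largest differences. Of the cell marker lists only some of the genes so chosen are named. Outside the rule, Cd4, Cd3e, Cd8a, Rag1, Dntt, Arpp21, Il2ra, Ikzf2, Itgam, Rac3, Adcy3, Adcy4, Adcy6, Gab2 and Pde3b were named after their values were seen. The seed matches planned for 3′ untranslated regions were not analysed here.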

Additional observations from a re-analysis of the deposited data

Results flagged for a closer look

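Among the targets, their relatives and the genes chosen by the rule, 3 had genotype differences of opposite signs in Qa2- and Qa2+ cells, which was not tested. They were Rock1 (-0.0215 and 0.20), the myeloid lysozyme gene Lyz2 (0.11 and -0.81) and Gab1 (-0.16 and 0.46). The Qa2- values of Rock1 and Lyz2 were within the scatter of low-signal genes, and Lyz2 was at the background threshold in WT Qa2- cells. Gab1 was below background on 3 arrays, so no direction is read from its values.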

How the results depend on the processing

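With arrays centred on their medians, quantile-normalised, or read from the mean of all probe sets of a gene, each of the 8 targets above background kept the direction of its genotype difference in both populations. In 53 of 54 such values of the 9 measured targets, Gab1 included, the change was under the standard deviation of receptor genes. The exception was Cdkn1b in Qa2+ cells (0.60 with both probe sets averaged). Much of that count was fixed in advance. Centring shifts all genes of a population by the same small amount, and averaging can change only Twf1 and Cdkn1b, which have 2 probe sets. The median over the 8 genes ranged from 0.39 to 0.44 in Qa2- and from 0.29 to 0.41 in Qa2+ cells. At 1.5-fold, averaging probe sets gave 3 genes up in each population in place of 2, with Twf1 added in Qa2- and Cdkn1b in Qa2+ cells. The count also depends on the threshold: at log2 0.32 it was 6 up and 1 down in the Qa2- population and 5 up in the Qa2+ population, and at 2-fold 0 were up in either. The counts at log2 0.32 depend on scaling as well. With arrays centred, Cdkn1b (0.296) and Wasl (0.317) in Qa2- cells and Twf1 (0.303) and Rac1 (0.276) in Qa2+ cells fell below it. For the stages, the fit without the pool as a block called 0 genes higher and 0 lower in limma (1544 at an unadjusted p under 0.05), centring called 1076 higher, quantile normalization 977 higher, and the fit without a filter 1593 lower, among them 1 target, Arhgap35 (-0.38, limma adjusted p = 0.043). The stage difference of Tgfbr1 turned to 0.011 with centring and to 0.032 in miR-142-/- alone; the cause was not tested. No paired analysis was possible for the genotypes because each has 1 array per population. The number of arrays limits every value, and Gab1 is limited by signal over background.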

Other observations

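Among the further reported targets, those above 0 in both populations included several named after their values were seen. Stam, an adaptor that sorts receptors into endosomes, differed by 0.42 and 0.57 in Qa2- and Qa2+ cells. Itgav, the integrin alpha V chain, differed by 0.52 and 0.38, Apc, the scaffold that promotes beta-catenin breakdown, by 0.29 and 0.41, and Il6st, the shared receptor chain of the interleukin-6 family, by 0.28 and 0.37. The clock gene Bmal1 (Arntl in the annotation) differed by 0.20 and 0.40. Those below 0 in both populations were E2f7, E2f8, Irak1 (-0.18 and -0.13), Tgfbr2 and Lrrc32, which anchors latent TGF-beta on regulatory T cells and differed by -0.18 and -1.29. Each of these rests on 1 array per group.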
